A study of Mus musculus with 145 samples.

Results

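Bone morphogenetic protein (BMP) signalling was examined through 7 genes during the reprogramming of mouse spermatogonial stem cells (SSCs) to pluripotent cells. The genes were chosen by name, with earlier results of these data known, and are 7 of the 24615 genes in the count table. They are the ligands Bmp4, Bmp7 and Bmp8b, the target genes Id1, Id2 and Id3, and the inhibitory Smad gene Smad6. All 7 passed the filter on low counts in both data sets, and 55 further genes of the pathway were set beside them.

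BMPs are secreted dimers that bring together type I and type II serine/threonine kinase receptors, which then phosphorylate the receptor-regulated Smads (Smad1, Smad5 and Smad9) inside the cell. These Smads join Smad4, enter the nucleus and induce, among others, the Id genes, whose proteins bind E proteins and keep them off DNA, and Smad6, which closes a negative feedback loop. Secreted antagonists of the noggin, chordin, gremlin and follistatin families hold the ligands outside the cell. In culture, BMP4 acting through Id proteins helps to maintain mouse embryonic stem cells (ESCs). BMP4 and BMP8b act on the formation of germ cells and, in the testis, on spermatogonia and the upkeep of germ cells.

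The SSC lines came from early postnatal male mice of a C57BL/6 female by DBA/2 male cross that carry EGFP under the Oct4 promoter, and grew on mitomycin C-inactivated mouse embryonic fibroblasts in medium with EGF, bFGF, GDNF and ESGRO, a leukaemia inhibitory factor. Single cells were picked from colonies on days 0 to 27 of reprogramming in this medium, the original condition, and gave 46 libraries of modified STRT-seq with 4339 cells. The pluripotent line gPSC-1 at passages 1 and 15 and ESCs, also with Oct4-EGFP on this cross, were kept on feeders in N2B27 with CHIR99021, PD0325901 and ESGRO, and gave 1 library each with 125 cells in all. A separate scTrio-seq2 experiment compared 8 samples in a cocktail of 5 compounds (5C: SGC707, vitamin C, EGCG, Daphnetin and TUDCA) with 5 samples in the solvent DMSO, in 724 and 365 cells.

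The classes are the clusters annotated by the authors. SSC1-4 are the spermatogonial clusters, RPG1 to RPG4 the steps of the reprogramming branch, and Early-pluripotent, Meiotic, Neural and Fibroblast the other classes. They were defined on these same transcriptomes, so the comparisons describe them and do not test them independently. The pluripotency markers Pou5f1, Nanog, Sox2, Utf1 and L1td1 summed to 22.8 to 244 CPM (UMI counts scaled to library size) in the SSC1-4 libraries and 130 to 378 in those of RPG1. They reached 1478 to 2046 CPM among the RPG2 libraries, 1682 to 2410 among the RPG3 libraries and 891 to 1156 in both RPG4 libraries, against 1449 in ESCs. The SSC markers Zbtb16, Gfra1, Dazl, Dmrt1 and Ddx4 summed to 1181 to 2470 CPM in SSC1-4, 101 to 315 in RPG3 and 77.5 to 123 in RPG4.

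Each value below is the UMI count of a gene summed over the cells of a class in 1 library (at least 5 cells), in CPM after TMM normalization, a scaling for composition, and n counts libraries. SSC1-4 had 36 such libraries, RPG1 had 7, RPG2 had 3, RPG3 had 8 and RPG4 had 2. Depth ran from 15975410 to 34609591 UMIs per reprogramming library, and the SSC1-4 sum of day 16 replicate 6 held only 8 cells and 433094 UMIs. It gave the lowest Id3 value of SSC1-4 and the highest of Smad6 and Bmp8b, where the next values were 105, 34.5 and 11.7 CPM. Batch was uneven over classes: all RPG2 cells were of batch B2, 30 of 33 RPG4 cells and 219 of 221 fibroblasts of B1, and 186 of 196 early-pluripotent cells of B2, while RPG3 had 131 cells of B1 and 130 of B2. By the study's description the cells came from a pair of reprogramming batches, taken here to be the B1 and B2 of the annotation. Nothing further states whether libraries of 1 day came from separate cultures, so the p-values measure only the spread between these libraries.

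Sequences before the RefSeq start are shown for the 5 members whose window was found, with matches to 6-base Smad1/Smad5 motifs. The windows are the 250 bases before the start, from RefSeq on GRCm38.p6, and those of Id1 and Bmp7 are not shown. Windows are given whole for Bmp4, Bmp8b and Smad6, and for Id2 and Id3 the matches with their flanks. In the GENCODE annotation, whose loci are given with the genes, the windows of Bmp4, Bmp8b and Smad6 lie outside these genes. That of Id3 lies with all 250 bases inside an exon and untranslated region of Id3, and that of Id2 lies wholly inside Id2, with 161 bases in an exon and untranslated region, so these are not upstream of the GENCODE start. Both strands were searched for GGCGCC. They were also searched for GGAGCC, which reads GGCTCC on the opposite strand, and for GTCT, the 4-base Smad element that overlaps neither. Capitals mark the 6-base matches. The windows are chr14:46390670-46390919 on the minus strand for Bmp4, chr4:123104911-123105160 on the plus strand for Bmp8b and chr9:64022060-64022309 on the minus strand for Smad6.
Bmp4: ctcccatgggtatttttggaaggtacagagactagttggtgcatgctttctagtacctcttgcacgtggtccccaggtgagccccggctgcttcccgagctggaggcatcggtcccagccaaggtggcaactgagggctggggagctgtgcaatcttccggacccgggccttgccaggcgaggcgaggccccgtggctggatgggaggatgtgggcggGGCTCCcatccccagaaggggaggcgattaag
Bmp8b: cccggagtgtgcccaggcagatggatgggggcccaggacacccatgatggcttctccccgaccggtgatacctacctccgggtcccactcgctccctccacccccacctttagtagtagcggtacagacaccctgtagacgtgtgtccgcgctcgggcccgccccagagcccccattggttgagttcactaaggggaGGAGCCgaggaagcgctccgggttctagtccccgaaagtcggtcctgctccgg
Smad6: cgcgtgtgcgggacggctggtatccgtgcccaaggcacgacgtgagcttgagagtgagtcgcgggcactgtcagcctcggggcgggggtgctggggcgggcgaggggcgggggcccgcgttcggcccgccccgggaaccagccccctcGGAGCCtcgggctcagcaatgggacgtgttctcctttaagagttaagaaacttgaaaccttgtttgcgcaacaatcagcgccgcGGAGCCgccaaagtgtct
Id2, 231 bases before the RefSeq start, chr12:25096308-25096333, minus strand: aggccccctgGGCGCCcagcgcacac
Id2, 88 bases before the RefSeq start, chr12:25096165-25096190, minus strand: atgatggacgGGAGCCcttccaccaa
Id3, 187 bases before the RefSeq start, chr4:136143625-136143650, plus strand: tcgcatccgaGGCTCCgctgtcctcg
GGAGCC was present in all 5 windows, 32 bases before the RefSeq start in Bmp4, 53 in Bmp8b, and 102 and 18 in Smad6. Of all 32851 windows, 26% held it, and of the 6291 with 60 to 70% GC, a span that covers these 5, 43.0% did. GGCGCC was in the Id2 window only (9.59% of all windows), and GTCT was in all 5 (82.9%). These are matches of letters, and no binding was measured.

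Of the 3 ligands chosen, Bmp4 had the largest estimated change along the branch, a log2 fold change of 5.79 in RPG2. The estimate for Bmp8b in RPG2, -5.24 from 2 UMIs, was close to it in size. The gene Bmp4 (chr14:46383520-46390669, minus strand) encodes a ligand of the type I receptors Bmpr1a and Bmpr1b and overlaps Gm15217 and Gm15222 on the opposite strand. Its level was 142 CPM in day 12 replicate 2, 68.5 in day 14 replicate 5 and 207 in day 14 replicate 6 of RPG2, and 38.0 at the lowest, 103 at the median and 177 at the highest of RPG3. In SSC1-4 the values were 0, 1.86 and 7.64 CPM, with 6 of 36 libraries at 0. Every RPG2 and RPG3 library thus lay above every SSC1-4 and every RPG1 library (0.957 to 15.3 CPM).

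The mean of Bmp4 was 139 ± 69.4 CPM (SD, n = 3) in RPG2 and 98.5 ± 41.0 (n = 8) in RPG3 against 2.3 ± 1.98 (n = 36) in SSC1-4, 60.5-fold and 42.8-fold higher. The log2 fold changes were 5.79 ± 0.48 (SE) with an adjusted p of 3.25e-18 and 5.29 ± 0.40 with 5.44e-21 in edgeR's quasi-likelihood test. The step from RPG1 to RPG2 alone was 5.12 ± 0.81 (adjusted p = 5.27e-07), while RPG1 did not pass against SSC1-4 (0.67, adjusted p = 0.505) and RPG3 did not pass against RPG2 (-0.51, adjusted p = 0.789). Within single libraries the direction was the same, with 68.5 CPM in RPG2 against 1.22 in SSC1-4 of day 14 replicate 5 and 207 against 4.07 in day 14 replicate 6. For RPG3 it was 108 against 1.05 CPM in day 23 replicate 1 and, with a smaller difference, 80.2 against 7.64 in day 20 replicate 8. The RPG3 libraries of batch B1 held 80.2 to 113 CPM and those of B2 38.0 to 177.

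In RPG4, Bmp4 was back at 1.58 and 3.44 CPM, below all 8 RPG3 libraries and inside the SSC1-4 range. The fall from RPG3 was 39.2-fold (log2 fold change -5.24 ± 1.38, adjusted p = 0.00707), and it rested on both RPG4 libraries, since leaving out day 20 replicate 1 or replicate 2 gave an adjusted p of 0.165 or 0.115. The established lines held intermediate levels in their single libraries, 47.2 CPM in gPSC-1 at passage 1, 31.5 in ESCs and 19 in gPSC-1 at passage 15. The order after them was Fibroblast, Early-pluripotent, RPG1, Neural, Meiotic, RPG4 and SSC1-4, from 8.29 down to 2.3 CPM, and each neighbouring pair among these overlapped.

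Bmp4 was also found in a larger share of the cells. At least 1 UMI was present in 78.7% of 47 RPG2 cells (exact binomial 95% interval 64.3 to 89.3%) and 68.6% of 261 RPG3 cells (62.6 to 74.2%), against 10.7% of 2265 SSC1-4 cells (9.44 to 12%) and 9.31% of meiotic cells. RPG1 and RPG4 lay between, with 30.6% of 333 cells (25.7 to 35.9%) and 30.3% of 33 cells (15.6 to 48.7%). Cells under 50000 UMIs were then left out and the others thinned to that number, and the shares were 71.1% of 45 RPG2 cells, 53.9% of 254 RPG3 cells and 5.95% of 2100 SSC1-4 cells. They were 8.01% of 312 cells in RPG1 (5.25 to 11.6%) and 6.06% of 33 in RPG4 (0.743 to 20.2%) against 4.98 to 7.05% for the interval of SSC1-4. These intervals cover counting over pooled cells, and shares were not compared between libraries. Free RNA was not measured, so how much of the low shares it gives was not tested. The median depth was 341308 UMIs per cell in RPG2, 285699 in RPG3, 345221 in RPG4, 238901 in RPG1 and 248474 in SSC1-4. A single cell held at most 8.22% of the Bmp4 UMIs of RPG2, 2.96% of those of RPG3 and 13.6% of those of RPG1, but 12 of the 24 in RPG4.

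**Figure D1:**
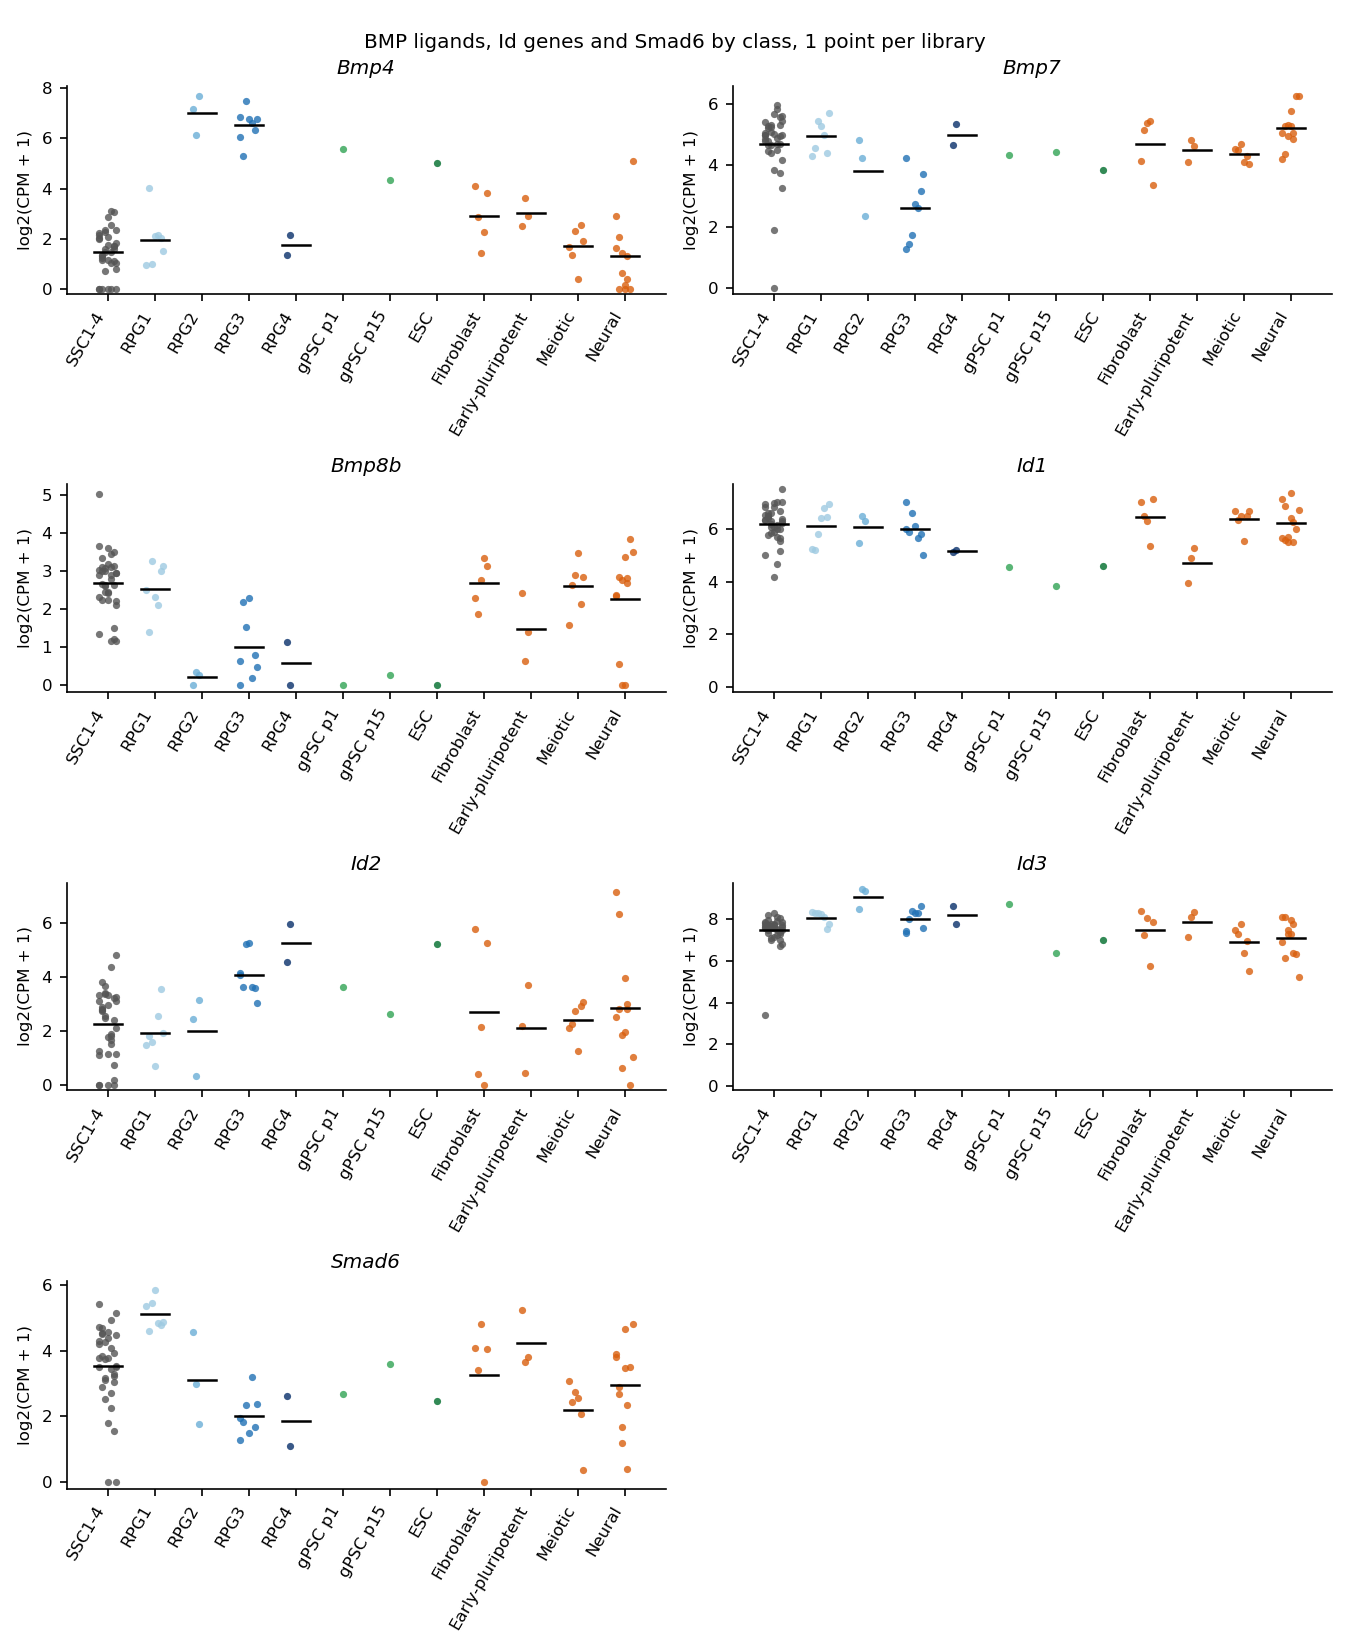
Levels of the 7 genes by class, with log2(CPM + 1) on the y axis, 1 point per library and a bar at the mean of the log2 values. Bmp4 stands apart in RPG2 and RPG3 (68.5 to 207 and 38.0 to 177 CPM), and Smad6 is highest in RPG1 and low in RPG3.

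Bmp7, a ligand that binds Acvr1 among other type I receptors (chr2:172868012-172940321, minus strand), was lower in RPG3 than in SSC1-4. Its level was 0, 30.6 and 62.4 CPM at the lowest, median and highest of SSC1-4, 27.6, 17.7 and 4.06 CPM in the RPG2 libraries day 12 replicate 2, day 14 replicate 5 and day 14 replicate 6, and 1.41, 5.40 and 18 CPM over RPG3. RPG3 had the lowest mean, and all its libraries lay inside the SSC1-4 range. Its mean of 6.79 ± 5.79 CPM (n = 8) was 4.44-fold below the 30.2 ± 13.8 (n = 36) of SSC1-4 (log2 fold change -2.12 ± 0.36, adjusted p = 3.19e-07). By batch, the RPG3 libraries held 5.12 to 18 CPM in B1 and 1.41 to 2.27 in B2.

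RPG4 held 24.5 and 39.6 CPM of Bmp7, above every RPG3 library and 4.73-fold higher by the means (log2 fold change 2.21 ± 0.55, adjusted p = 0.00402), a call that was lost without day 20 replicate 2 (1.77, adjusted p = 0.228). By these sums Bmp4 fell from RPG3 to RPG4 while Bmp7 rose. However, a single cell held 187 of the 343 Bmp7 UMIs of the 33 RPG4 cells (54.5%), and the 2 tested sums held 269. Whether Bmp7 rises without that cell was not tested. In RPG2, where Bmp4 was high, Bmp7 was not called against SSC1-4 (-0.88, adjusted p = 0.163) or RPG1 (-0.96, adjusted p = 0.187), and with at least 10 cells per sum both passed (-1.56 each, adjusted p = 0.0172 and 0.0283). RPG1 (32 ± 12.4 CPM, n = 7) lay within the SSC1-4 range. Neural cells had the highest mean, 40.1 ± 19.3 CPM (n = 12), and all neighbours in the order of the 12 classes and lines overlapped, down to 20.5, 19.5 and 13.3 CPM in gPSC-1 at passage 15, gPSC-1 at passage 1 and ESCs.

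Bmp8b, a ligand of germ cells (chr4:123105165-123132099, plus strand), was low in SSCs and close to absent in RPG2. It overlaps Oxct2b on the same strand and Ppie and Gm17244 on the other, and it has a close paralog in Bmp8a. Whether strand was used in counting is not given in the sources used here, so its counts carry that uncertainty. SSC1-4 held 1.21, 6.15 and 31.7 CPM at the lowest, median and highest, while the RPG2 libraries held 0, 0.269 and 0.185 CPM in the order above. No RPG2 library reached the SSC1-4 range.

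The RPG2 values rest on 2 UMIs, and the ratio of SSC1-4 to RPG2 in CPM before TMM scaling was 42.3 with a counting interval of 11.7 to 349. The test gave a log2 fold change of -5.24 ± 1.2 (adjusted p = 0.000229), and -4.99 against RPG1 (adjusted p = 0.00100). Under the replicate block, which kept the 2 libraries with both classes, the change against SSC1-4 was -4.22 ± 2.02 and missed the threshold (adjusted p = 0.148). RPG3 had 0, 0.630 and 3.89 CPM at the lowest, median and highest, with a mean 4.74-fold below SSC1-4 (-2.08 ± 0.54, adjusted p = 0.000758). RPG4 had 1.19 and 0 CPM from 3 UMIs, a ratio of 14.9 (5.09 to 72.2) and an adjusted p of 0.0259 that rose to 0.363 without day 20 replicate 2. In the lines, gPSC-1 at passage 15 held 2 UMIs (ratio 32.3, 8.94 to 267), and gPSC-1 at passage 1 and ESCs held none, at least 27.9-fold and 29.5-fold lower than SSC1-4 at a limit of 3 counts per library. Fibroblast, Meiotic, Neural and RPG1 means lay between 5.28 and 5.85 CPM, all inside the SSC1-4 range.

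In the original condition, Id3 was the target gene that rose with Bmp4 in RPG2. Its protein pairs with E proteins, and the gene lies at chr4:136143497-136145755 on the plus strand. The RPG2 libraries held 355, 701 and 641 CPM in day 12 replicate 2, day 14 replicate 5 and day 14 replicate 6, against 9.76, 195 and 314 CPM at the lowest, median and highest of SSC1-4. All 3 lay above every SSC1-4 library and above every RPG1 library (186 to 321 CPM). High Id3 and high Bmp4 did not go together in RPG2 of the scTrio-seq2 samples. There the 5C means were 518 CPM of Id3 and 6.16 of Bmp4 (n = 3). The single DMSO sample, of 5 cells, held 0 and 76.1.

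The mean of Id3 in RPG2 was 566 ± 185 CPM (n = 3), 2.96-fold above the 191 ± 57.7 (n = 36) of SSC1-4 (log2 fold change 1.58 ± 0.29, adjusted p = 4.84e-06). Inside day 14 replicates 5 and 6 it was 701 against 175 and 641 against 189 CPM. Against RPG1 the change was 1.06 ± 0.37 (adjusted p = 0.0233), a call lost when day 14 replicate 5 (0.133) or replicate 6 (0.102) was left out and with sums per batch and day (0.48, adjusted p = 0.671). RPG3 (265 ± 85.8 CPM, n = 8, 160 to 392) overlapped SSC1-4 and passed narrowly (0.48 ± 0.21, adjusted p = 0.0470). This call was lost in 13 of the 28 fits without 1 library (adjusted p up to 0.109), by the DESeq2 Wald test (0.0537), without the filter on low counts (0.0561), with sums per batch and day (0.480) and under the replicate block (0.256). RPG3 missed the threshold against RPG2 (-1.10 ± 0.36, adjusted p = 0.0505). Next in order were gPSC-1 at passage 1 with 428 CPM and RPG4 with 395 and 221, whereas ESCs with 126 and gPSC-1 at passage 15 with 81.4 CPM were the lowest.

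Id1 (chr2:152736251-152737410, plus strand), widely used as a readout of BMP signalling, was called in no class of the branch against SSC1-4, though some alternatives called it lower in RPG3 and RPG4. The RPG2 libraries held 43.4, 89.4 and 78.1 CPM and RPG3 31.4 to 129, all within the 17.2 to 183 CPM of SSC1-4 (80.0 ± 34.2, n = 36). With the library as a replicate block, the log2 fold change in RPG3 was -1.16 (adjusted p = 0.0119). RPG4 lay in the lower end of that range and narrowly missed the threshold (33.6 and 36.4 CPM, log2 fold change -1.2, adjusted p = 0.0572), and it passed with batch as a covariate (-1.28, adjusted p = 0.0346) and by the DESeq2 Wald test (-1.05, adjusted p = 0.0450). The early-pluripotent libraries held 14.5, 29 and 37.5 CPM, a mean of 27 ± 11.6 (n = 3) that was 2.96-fold below SSC1-4 (-1.6 ± 0.41, adjusted p = 0.0277). This call was lost with batch as a covariate (-1.19, adjusted p = 0.243), with sums per batch and day (0.396), under the replicate block (-0.31) and without day 12 replicate 2 or day 14 replicate 3 (0.355 and 0.119). In 1 of the 2 libraries with both classes the order was the reverse, with 37.5 CPM in early-pluripotent cells against 17.2 in SSC1-4 of day 18 replicate 4. The lines were lowest, with 23.4 CPM in ESCs and 22.8 and 13.2 in gPSC-1 at passages 1 and 15.

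Id2 (chr12:25093799-25097140, minus strand) was called late on the branch, in RPG3 and RPG4. RPG1 (0.639 to 10.7 CPM) and RPG2 (4.46, 0.269 and 7.94 CPM) lay within the SSC1-4 range of 0, 4.72 and 27.2 CPM at the lowest, median and highest, while RPG3 held 7.27, 13.8 and 37.7 CPM and RPG4 22.5 and 61.4. The RPG3 mean of 18.5 ± 11.7 CPM (n = 8) was 3.22-fold above the 5.75 ± 5.77 (n = 36) of SSC1-4 (log2 fold change 1.62 ± 0.56, adjusted p = 0.0113), with overlapping ranges. The RPG3 call was lost under the replicate block (0.98, adjusted p = 0.636) and with sums per batch and day (1.73, adjusted p = 0.0802). Inside day 20 replicate 8 Id2 was 11.2 CPM in RPG3 against 2.21 in SSC1-4, and inside day 23 replicate 1 it was lower, 7.27 against 8.69. RPG4 was 7.30-fold higher (2.80 ± 0.87, adjusted p = 0.00923), which fell to 1.90 (adjusted p = 0.418) without day 20 replicate 2. ESCs held 36.5 CPM, gPSC-1 at passage 1 held 11.5 and at passage 15 held 5.14. Within SSC1-4 the Id2 means were 1.15, 3.69, 14.4 and 3.84 CPM in the clusters SSC1, SSC2, SSC3 and SSC4. SSC3 ran from 0 to 62.3 CPM (n = 18) and so overlapped RPG3. In RPG3, 10 of the 261 cells held 47.7% of the Id2 UMIs.

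Smad6, whose protein binds activated type I receptors and blocks the Smads (chr9:63953076-64022059, minus strand), had its highest mean in RPG1. SSC1-4 held 0, 12.6 and 41.5 CPM at the lowest, median and highest, RPG1 23.3, 27.9 and 55.9, and RPG2 22.8, 6.98 and 2.4 in day 12 replicate 2 and day 14 replicates 5 and 6. RPG3 held 1.41, 2.67 and 8.20 CPM, below every RPG1 library. The RPG3 mean of 3.4 ± 2.18 CPM (n = 8) was 4.12-fold below the 14 ± 9.59 (n = 36) of SSC1-4 (log2 fold change -1.99 ± 0.51, adjusted p = 0.000633), and inside day 20 replicate 8 and day 23 replicate 1 it was 2.17 against 29.1 and 4.21 against 34.5 CPM.

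The difference of Smad6 between RPG1 and SSC1-4 (34.9 ± 11.9 CPM, n = 7, 2.49-fold, 1.31 ± 0.42, adjusted p = 0.0493) was at the threshold and was lost in 19 of the 27 fits that left out 1 of its libraries, up to an adjusted p of 0.140. Inside the libraries that held both classes RPG1 was not higher, with 27.6 CPM against 29.1 in SSC1-4 of day 20 replicate 8 and 26.1 against 34.5 in day 23 replicate 1, and the replicate block gave -0.24 (adjusted p = 0.998). RPG4 (5.14 and 1.15 CPM, adjusted p = 0.105) and meiotic cells (4.31 ± 2.43 CPM, n = 6, adjusted p = 0.0905) did not pass. Both were called lower by the DESeq2 Wald test (0.0385 and 0.0178) and with at least 10 cells per sum (0.0375 and 0.00837), and RPG4 also with sums per batch and day (0.0324). RPG2 against RPG1 was not called (-1.70 ± 0.84, adjusted p = 0.122), but it was called lower with at least 10 cells per sum (-2.89, adjusted p = 0.00823). Within SSC1-4 the means rose over the clusters SSC1, SSC2, SSC3 and SSC4, with 4.93, 10.6, 18.8 and 25.8 CPM of Smad6, and the ranges overlapped. Of the lines, gPSC-1 at passage 15 held 11 CPM and gPSC-1 at passage 1 and ESCs 5.34 and 4.49.

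**Figure D2:**
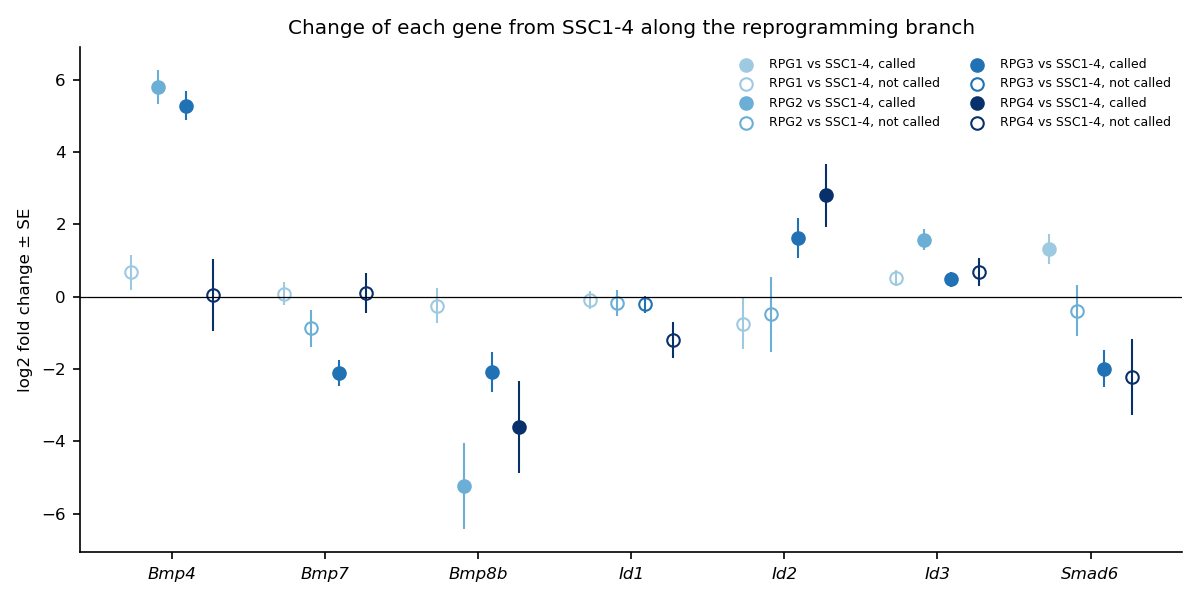
Log2 fold change against SSC1-4 of the 7 genes in RPG1 to RPG4, with bars of 1 SE and filled points where the adjusted p was under 0.05. Bmp4 is at 5.79 in RPG2 and 5.29 in RPG3, and Bmp7, Bmp8b and Smad6 are below 0 in RPG3.

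Counted over the 7 genes, 1 was higher in RPG1 than in SSC1-4 and none lower, where 4.61% of all 20030 genes tested were called, 2.58% higher and 2.03% lower. In RPG2, 2 were higher and 1 lower (36% of all genes called, 17.5% higher and 18.5% lower). In RPG3 it was 3 and 3 (56.8%, 25.2% higher and 31.5% lower), and in RPG4 1 and 1 (27.7%, 12.6% and 15.1%). RPG2 against RPG1 called 2 higher and 1 lower (27.5%, 12.8% and 14.7%), and RPG4 against RPG3 1 and 1 (8.93%, 3.94% and 4.99%). RPG3 against RPG2 called none (5.98%, 2.85% and 3.13%), although 4 had an unadjusted p under 0.05, and DESeq2 called none either. With batch as a covariate, where all RPG2 cells were of B2, Bmp7 (-2.01, adjusted p = 0.00668) and Id3 (-1.29, adjusted p = 0.0235) were called lower in RPG3, and Id3 also with at least 10 cells per sum (-1.28, adjusted p = 0.00442). The share called in RPG3 was above that of all genes, in a comparison where most genes were called. The median log2 fold change of the 7 genes was -0.39 in RPG2 and -0.21 in RPG3, beside -0.52 and -0.25 over all genes, and the members went in both directions.

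The rest of the pathway was read from 55 genes, of which 51 were tested. In RPG1 none was higher and 1 lower than in SSC1-4, in RPG2 4 and 11, in RPG3 8 and 21 and in RPG4 10 and 7. The shares of all genes called in the last 3 were 36%, 56.8% and 27.7%. The 17 calls in RPG4 fell to 9 without day 20 replicate 1 and to 6 without replicate 2. The median of the list was -1.28 in RPG2 and -0.48 in RPG3, beside -0.52 and -0.25 over all genes. Eng, the co-receptor endoglin, rose from a mean of 2.76 CPM in SSC1-4 to 43.6 in RPG2 and 24.8 in RPG3 (log2 fold changes of 3.91 and 3.08, adjusted p = 3.11e-06 and 1.16e-06), and was 49.1 CPM in ESCs. Smad7, the other inhibitory Smad, was at 56.1, 57.6 and 208 CPM in the RPG2 libraries against a median of 15.2 in SSC1-4 (2.66 ± 0.36, adjusted p = 2.66e-09). Unlike Smad6, Smad7 was higher in RPG2 than in RPG1 (1.85, adjusted p = 0.00295), and it fell from RPG2 to RPG3 (-1.53, adjusted p = 0.0444). In that last comparison 2 genes of the list were called, Smad7 and the inhibitor Skil (1.94, adjusted p = 3.53e-05). In 8 of the 10 fits without 1 library the count was 1.

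Among ligands, Bmp8a rose in RPG3 from a mean of 0.378 to 3.98 CPM (3.25, adjusted p = 6.87e-05) and was 15.2 CPM in gPSC-1 at passage 1 and 14.7 in ESCs. Bmp8a and Bmp8b, which are close paralogs, thus differed in direction, as far as the counting could separate them. Gdf5 rose in RPG2 and RPG3 (4.71 and 4.76), at means of 0.923 and 0.957 CPM. Of the 14 secreted antagonists, 4 were lower in RPG2 and none higher, and 6 were lower in RPG3 and 1 higher, where 18.5% and 31.5% of all genes were lower in RPG2 and RPG3. Chrdl1 fell already in RPG1 (-4.60, adjusted p = 8.14e-05) and Chrdl2, also of the chordin family, in RPG2 and RPG3 (-4.47 and -5.78). Of the 6 other targets, 4 were lower in RPG2 and 5 in RPG3, with Atoh8, a helix-loop-helix factor, at -5.96 in RPG2. Smad9, a receptor-regulated Smad, fell in RPG3 (-5.01, adjusted p = 0.000341).

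From RPG3 to RPG4, 10 of the 51 genes rose and none fell, among them 6 of the 14 secreted antagonists, where 3.94% of all genes rose and 4.99% fell. The count of 10 fell to 6 without day 20 replicate 1 and to 5 without replicate 2. Cer1, an antagonist of Nodal and BMP, held 1.19 and 41.3 CPM in the RPG4 libraries against a mean of 0.288 in RPG3 (6.07 ± 1.82, adjusted p = 0.0210), and the ligand Bmp2 held 0.396 and 36.7 against 0.277 (5.95 ± 1.6, adjusted p = 0.00850). In both genes 1 of the RPG4 libraries carried nearly all of the signal. Grem1 was higher in RPG4 than in SSC1-4 (6.32), with 0 and 16.1 CPM in its libraries.

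Outside the branch, few members were called. Fibroblasts had 1 of 7 higher and none lower, where 5.63% of all genes were called, 5.23% higher and 0.399% lower. Early-pluripotent cells had 1 lower, Id1 (1.29% of all genes, 0.914% higher and 0.374% lower), and neural cells 1 higher (10.7%, 5.77% and 4.97%). Meiotic cells had none (1.86%, 1.10% and 0.764%), with 2 at an unadjusted p under 0.05 and 1 by DESeq2. The fibroblast call was Bmp4, with 16.3, 6.29, 1.68, 3.82 and 13.3 CPM in day 10 replicate 1, day 14 replicates 2 and 4, day 27 replicate 5 and day 8 replicate 1 (8.29 ± 6.28, 1.74 ± 0.51, adjusted p = 0.0211), and it was lost without day 10 replicate 1 or day 8 replicate 1 (0.248 and 0.156), by the DESeq2 Wald test (0.0703) and under the replicate block (0.744). Of the pathway list 7 were higher and 1 lower in fibroblasts, led by the ligand Gdf6 (9.18) and the antagonist Grem1 (7.24). In neural cells 8 were higher and 2 lower, with the ligand Bmp5 at 4.12 and Cer1 at 3.78, and 6 in all without day 27 replicate 2. In early-pluripotent cells it was 1 and 1, Gdf6 (4.11) and Chrdl2 (-8.59), and in meiotic cells 1 and 0, Gdf6 (3.14). The former fell to 1 in all without day 12 replicate 2 or day 18 replicate 4. The meiotic count became 0 without day 16 replicate 2 or 3 and 2 without day 14 replicate 4.

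The levels of the Id genes in these classes differed between their subclusters. In neural cells Id2 ran from 0 over a median of 5.39 to 141 CPM in 12 libraries, and its call (1.92 ± 0.49, adjusted p = 0.00485) was lost without day 27 replicate 1 (0.97, adjusted p = 0.213). In the 10 libraries with both classes the replicate block turned Id2 to -0.69 (adjusted p = 0.726) and called Id3 lower in neural cells (-0.71, adjusted p = 0.0277). Sums per batch and day gave the reverse for Id3 (1.52, adjusted p = 0.0173) and called Id1 higher (1.69, adjusted p = 0.0366). The cluster Neural 3, found in 2 libraries of day 27, held 393 and 315 CPM of Id2, against means of 2.85 in Neural 1 and 16.8 in Neural 2. The same cluster held 270 and 234 CPM of Id1 and 433 and 477 of Id3, where Neural 1 and Neural 2 had means of 64.1 and 84.1 and of 126 and 214. Neural 3 thus lay above the means of both other neural clusters in all 3 Id genes, as a description of clusters defined on these cells.

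Fibroblast 2 gave a similar picture in 2 of its 3 libraries. Id1 was 457, 662 and 41.0 CPM, Id2 239, 236 and 0, and Id3 680, 973 and 55.1 in day 10 replicate 1, day 8 replicate 1 and day 27 replicate 5, against means of 77.5, 8.75 and 204 in Fibroblast 1. The 12 fibroblast markers, which the feeder cells also carry, summed to 3088 to 5613 CPM before TMM scaling in Fibroblast 2, 270 to 465 in Fibroblast 1, 1180 to 1230 in Neural 3 and at most 195 in Neural 1 and 145 in Neural 2. The SSC markers summed to 131 to 290 in Neural 3, whereas Neural 1, Neural 2 and Fibroblast 1 held 1419 to 1880, inside the 1181 to 2470 of SSC1-4, and Fibroblast 2 held 209 to 1179. Markers of testis somatic cells summed to 238 to 314 in Neural 3. The part of these cells in the Id levels was not tested. In RPG2 of the original condition, where Bmp4 and Id3 rose, the fibroblast markers summed to 4.73 to 13.7 CPM, against 16 to 185 in SSC1-4. Of the 12 markers, 3 were at 0 in every RPG2 library.

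**Figure D3:**
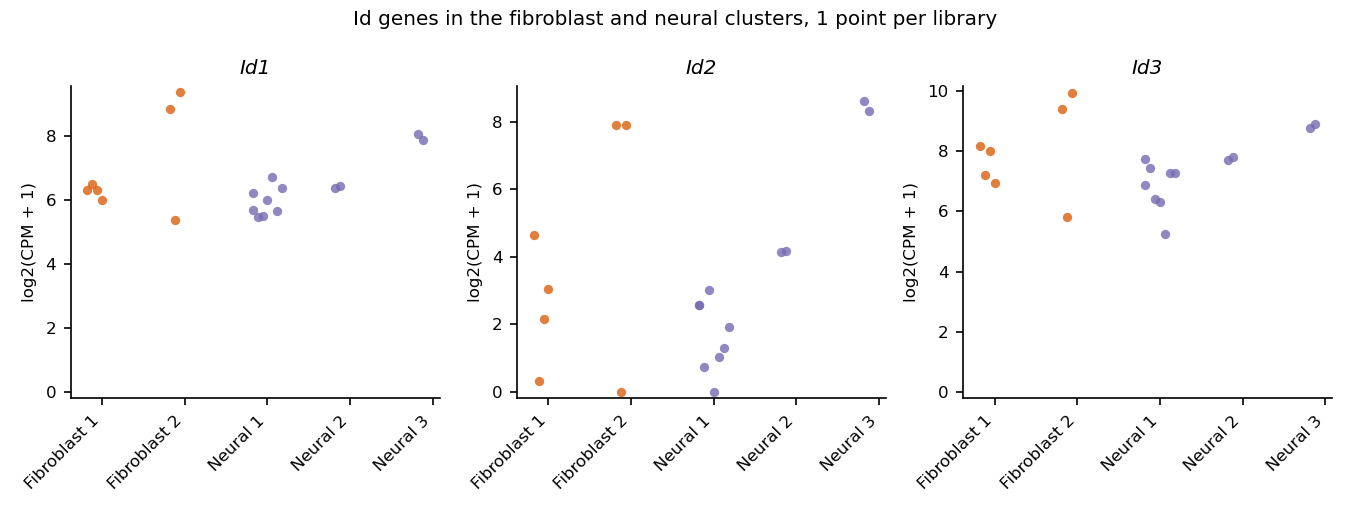
Id1, Id2 and Id3 in the fibroblast and neural clusters, with log2(CPM + 1) on the y axis, and 1 point per library. Neural 3 lies above Neural 1 and Neural 2 in all 3 genes, and 1 of the 3 libraries of Fibroblast 2 lies low.

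Within SSC1-4, the 7 genes also varied by day. The median of Id2 was 0.131 CPM over the 5 libraries of day 16 and 10.5 over the 6 of day 23, and that of Smad6 was 3.78 and 20.6. Id1 went from 50.2 CPM on day 16 to 125 on day 23, and Bmp7 from 12.5 to 34.4. Day 16 was the lowest day in the medians of Id1, Id2, Id3, Smad6 and Bmp7. Days differ in their mix of SSC clusters and in batch, and these values are not tested.

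Over the 82 sums of a library and a class, the pattern most like Bmp4 (Pearson r of log2(CPM + 1) among 20029 genes) was that of Jam2 (0.88), Chrna9 (0.87) and Saa3 (0.86). For Bmp7 it was Dusp26 (0.68), Cnppd1 (0.67) and Sypl (0.67), and for Bmp8b Dnajb9 (0.69), Fbxo7 (0.68) and Ablim3 (0.68). For Id3 it was Ola1 (0.73), Deptor (0.69) and Rnaseh2c (0.68), and for Smad6 Tmem132e (0.66) and Kcnc2 (0.65). Id1 was nearest to Fez2 (0.54), Flt3 (0.54) and Chrdl2 (0.51), and Id2 to Idh1 (0.60), Has2 (0.60) and Fam181b (0.59). Among the members, Bmp4 and Bmp8b had r = -0.56, Bmp8b and Id3 -0.50, Bmp4 and Bmp7 -0.44, Bmp7 and Smad6 0.43 and Bmp4 and Id3 0.38. Sums of 1 library share its depth and preparation, and the r values describe these sums.

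The 5C samples were compared with DMSO inside the classes that the study had predicted for each cell. By the names of the cells, the 5C cells were taken on days 12 to 16 and the DMSO cells of RPG1 to RPG3 on day 20, and those of SSC1-4 on days 0, 20 and 24, so that treatment and day cannot be told apart. SSC1-4 had 8 5C and 3 DMSO samples, RPG1 4 and 2, and RPG3 6 and 2, and depth ran from 5880774 to 10723044 UMIs over the 5C samples and from 3888311 to 8059618 over those in DMSO.

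Id3 was higher under 5C in RPG3. The DMSO samples held 102 and 108 CPM and the 5C samples 301, 394 and 647 at the lowest, median and highest, so the groups did not overlap. The means were 105 and 411 CPM, 3.91-fold apart (log2 fold change 1.99 ± 0.30, adjusted p = 4.16e-06). RPG3 of the original condition, normalized separately, held 160 to 392 CPM, so both DMSO samples lay below its 8 libraries and the 5C samples overlapped them. Both DMSO samples, replicates 1 and 2, had the fewest genes per cell of the 13 samples, medians of 5063 and 4906 against 5563 to 7048, and the part of this in Id3 was not tested. Of RPG3 cells, 95.9% of 145 had an Id3 UMI under 5C (91.2 to 98.5%) and 50.7% of 140 under DMSO (42.1 to 59.3%), with median depths of 97826 and 72906.5 UMIs. After thinning to 50000 UMIs, which left out the shallower cells, the shares were 98.3% of 120 and 53.2% of 109 cells. The pluripotency markers summed to 1796 to 2855 CPM in 5C RPG3 and 3423 to 3453 in DMSO RPG3, and the SSC markers to 155 to 462 and 80.8 to 106, so the groups also differed in these, and the part of that in Id3 was not tested.

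In SSC1-4, Id3 was 110, 113 and 129 CPM under DMSO and 120, 228 and 292 at the lowest, median and highest under 5C. The groups overlapped at 1 end, and the difference was 1.82-fold (0.83 ± 0.23, adjusted p = 0.0119). It was lost without DMSO replicate 3 or 4 (0.0598 and 0.0669). In RPG1 the values were 195 and 218 CPM under DMSO and 105, 157, 198 and 225 under 5C, with no call (-0.30, adjusted p = 0.592). The 5C difference was larger in RPG3 than in SSC1-4 by 1.16 ± 0.35 on the log2 scale (adjusted p = 0.0356), a call lost in 8 of the 13 fits that left out 1 sample (adjusted p up to 0.201). In DMSO the RPG3 sums came from replicates 1 and 2 and those of SSC1-4 from replicates 3, 4 and 5, so class and sample cannot be told apart there. In RPG2 the 5C samples held 397, 531 and 626 CPM, while the single DMSO sample had no Id3 UMI in 252459 UMIs of 5 cells, which allows up to 11.9 CPM.

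Smad6 was higher under 5C in SSC1-4. The DMSO samples held 4.30, 2.17 and 0.916 CPM and the 5C samples 10.3, 16.1 and 32.8 at the lowest, median and highest, with no overlap (7.41-fold, 2.80 ± 0.85, adjusted p = 0.0225). A UMI of Smad6 was found in 29.4% of the 5C and 6.29% of the DMSO cells of SSC1-4. The call was lost without DMSO replicate 4 or 5 (0.101 and 0.139). The fibroblast markers summed to 7.96 to 45.7 CPM in 5C SSC1-4 and 51.5 to 70.8 in DMSO SSC1-4. In RPG3 Smad6 was 0 to 7.20 CPM under 5C and 1.89 and 5.32 under DMSO, and the difference between the classes was not called (-3.13, adjusted p = 0.110).

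Bmp4 was not called between the treatments. In RPG3 the DMSO samples held 79.8 and 107 CPM and the 5C samples 8.89, 77.2 and 163 at the lowest, median and highest (log2 fold change -0.26, adjusted p = 0.851), beside 38.0 to 177 in RPG3 of the original condition, which was normalized separately. In RPG2 the single DMSO sample held 76.1 CPM of Bmp4, from 17 UMIs of 5 cells with 10 of them in 1 cell. The 5C samples held 3.73, 14.7 and 0 CPM, with no test, beside 68.5 to 207 CPM in RPG2 of the original condition. No 5C sample of RPG2, with sums of 5 to 11 cells, thus reached the Bmp4 level of that class in the original condition. Of the 24 5C cells of RPG2, 20.8% had a Bmp4 UMI (7.13 to 42.2%), at a median depth of 127710 UMIs. The SSC markers summed to 226 to 951 CPM in 5C RPG2 and 167 to 281 in RPG2 of the original condition. The part of that in Bmp4 was not tested. Bmp8b in RPG3 was 0 to 0.480 CPM under 5C and 1.12 and 4.59 under DMSO, a ratio of 9.04 in CPM before TMM scaling (2.7 to 47.3) that missed the threshold (-3.61 ± 1.42, adjusted p = 0.0837).

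Of the 7 genes, 1 was higher under 5C in RPG3 and none lower (13.4% of all 14473 genes called, 6.20% higher and 7.24% lower), and 2 were higher in SSC1-4 (12.8%, 6.12% and 6.72%). In RPG1 none was called (6.27%, 3.16% and 3.11%), with 1 at an unadjusted p under 0.05 and none by DESeq2, and the difference between RPG3 and SSC1-4 was called for Id3 alone (6.76%, 2.54% and 4.22%). Of the 37 tested genes of the pathway list, 7 were higher and none lower in RPG3, led by Msx2 (3.85), Fstl1 (2.54) and Smad1 (1.95), and the count fell to 4 without DMSO replicate 1 and to 1 without DMSO replicate 2. In SSC1-4 it was 7 and 1, with Id4, the remaining Id gene, at 1.75 ± 0.35 (adjusted p = 0.000358), Smad1 at 1.53 and Ski at -0.83, and 5 in all without DMSO replicate 4. Smad1, the receptor-regulated Smad, was 4.20 and 5.40 CPM under DMSO and 1.73 to 27.9 under 5C in RPG3, and 2.17 to 14.5 and 19.1 to 47.5 in SSC1-4. Eng in SSC1-4 was at 0 in the 3 DMSO samples and at 0 to 6.56 CPM under 5C. In RPG1, Id4 (1.72) and Bmpr1a, a type I receptor (1.45), were higher and none was lower, and the count of 2 fell without 5C replicate 2, DMSO replicate 1 or DMSO replicate 2 (0 each) or 5C replicate 6 (1).

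**Figure D4:**
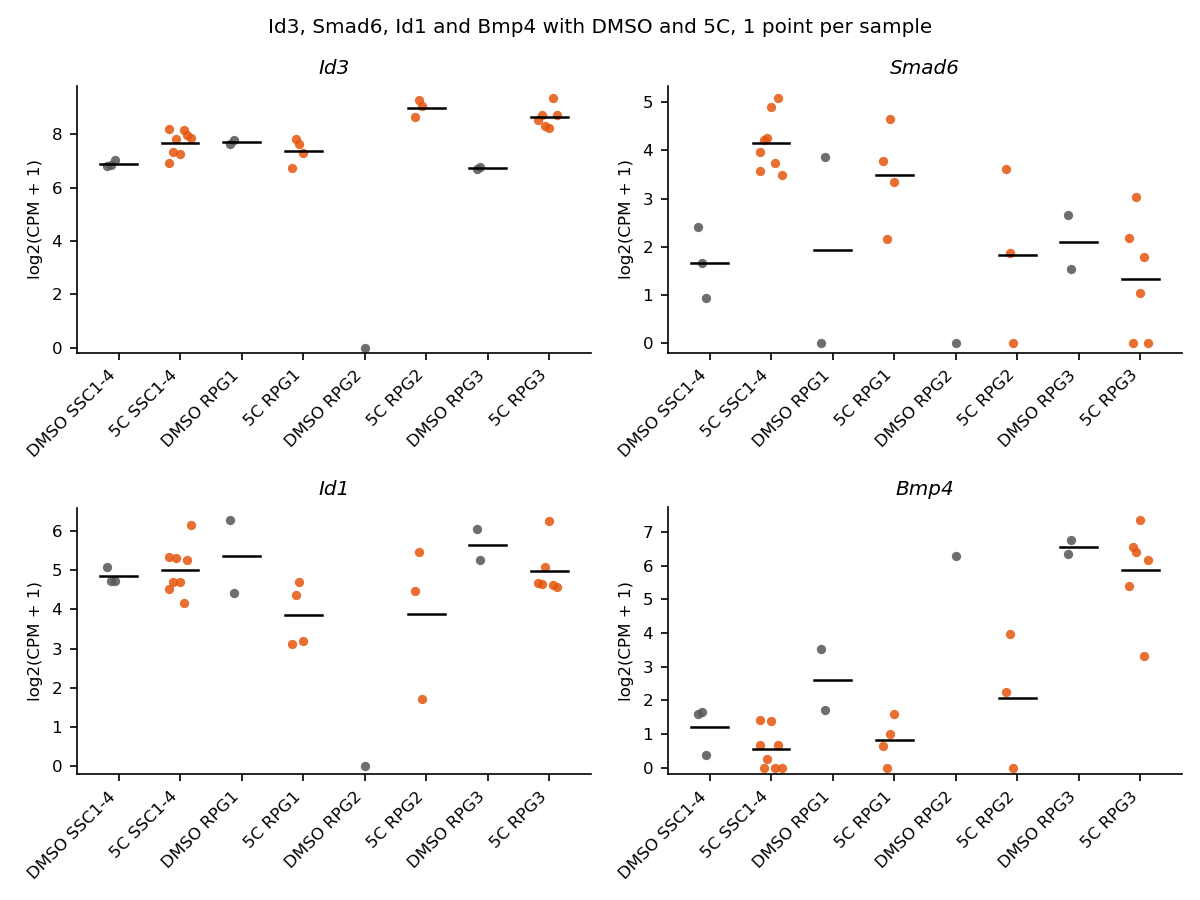
Id3, Smad6, Id1 and Bmp4 in the DMSO and 5C samples by predicted class, with log2(CPM + 1) on the y axis, 1 point per sample and a bar at the mean. In RPG3 the 6 5C samples lie above both DMSO samples for Id3 (301 to 647 against 102 and 108 CPM) and overlap them for Bmp4.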

How the data were processed

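Modified STRT-seq and scTrio-seq2 RNA libraries of mouse cells were analysed; methylomes were not used here. The files deposited by the authors hold UMI counts of single cells without normalization, after alignment to mm10 with STAR 2.7.2b, featureCounts 2.0.0 and UMItools (version not given in the sources used here), and excluded cells with few genes or a high mitochondrial share. Classes are the authors' cluster annotation and, for scTrio-seq2, their predicted classes. Cells were picked by mouth pipette, so shares describe collected cells, and doublets were not called. Counts of at least 5 cells were added up for each class of a library and tested with edgeR 4.0.16 (TMM, filterByExpr, glmQLFit, glmQLFTest) in R 4.3.3, in 1 fit over all classes. Genes absent from 1 scTrio-seq2 table were set to 0 (no member was). SE is the absolute log2 fold change over the square root of F, and calls used Benjamini-Hochberg adjustment over all genes tested with a threshold of 0.05. DESeq2 1.42.0 was an alternative. Groups of 2 libraries take their spread mainly from the other groups. The fit was tested on simulated counts with the same spread for all genes. Changes of 1 and 2 on the log2 scale were called in 35% and 95% of the changed genes for RPG3 against SSC1-4. The shares were 1% and 27% for RPG4 against SSC1-4, and 1% and 11% for 5C against DMSO in RPG3. A gene not called in these last comparisons can thus still have changed. Members and lists were chosen with earlier results of these data known. Named were all 7 members, up to 3 called pathway genes with the largest change per direction and comparison, and the 3 genes most like each member. Some genes that this rule names are not reported here. Smad7, Smad1, Bmp8a, Eng and Id4 were also followed across comparisons after their values were seen. Intervals (95%) and limits of 3 counts cover counting error only. Loci are on GRCm38.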

Additional observations from a re-analysis of the deposited data

Results flagged for a closer look

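Within groups of 4 to 10 samples, 9 of 49 groups held 1 value in CPM far from the others. Chance gives about 1 in 20 for normally spread values, a spread that was not tested here, and all 9 were high values. In the original condition these were Bmp4 in RPG1 of day 18 replicate 5 (15.3 CPM, the others 0.957 to 3.38), Id2 in RPG1 of day 23 replicate 1 (10.7, the others 0.639 to 4.91) and Smad6 in RPG3 of day 20 replicate 2 (8.20, the others 1.41 to 4.21). Under 5C they were Bmp7 in RPG1 of replicate 8 (49.7, the others 20.6 to 23.7), Bmp7 in RPG3 of replicate 7 (10.4, the others 1.44 to 3.54), Id1 in RPG3 of replicate 6 (74.5, the others 22.7 to 32.9), Id1 in SSC1-4 of replicate 7 (70.3, the others 16.8 to 39.1), Id2 in RPG3 of replicate 5 (62.2, the others 0 to 19) and Id3 in RPG3 of replicate 7 (647, the others 301 to 418). Of these, 3 came from replicate 7 of 5C. The difference of Id3 between 5C and DMSO was larger in RPG3 than in SSC1-4, by 1.16 on the log2 scale in a test of the difference itself (edgeR, adjusted p = 0.0356), a call lost in 8 of 13 fits without 1 sample (adjusted p up to 0.201). No DMSO sample gave sums of both classes, so class and sample cannot be told apart in that arm.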

How the results depend on the processing

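The counts of called members in RPG2 (3) and RPG3 (6) against SSC1-4 and in 5C against DMSO in RPG3 (1) and in RPG1 (0) moved by at most 1.5 times under every alternative that was run. The 1 call in RPG1 against SSC1-4 became 0 with DESeq2 size factors, the DESeq2 Wald test, the strict rule (adjusted p below 0.01 with a natural-log change of 1 or more in size), sums per batch and day and the replicate block. RPG4 against SSC1-4 went from 2 to 4 by the Wald test and 1 by the strict rule, RPG2 against RPG1 from 3 to 5 with at least 10 cells per sum, and RPG3 against RPG2 from 0 to 1 with at least 10 cells and 2 with batch as a covariate. Fibroblast went from 1 to 0 (Wald test, strict rule, replicate block), Early-pluripotent from 1 to 0 (strict rule, batch covariate, sums per batch and day, replicate block), Meiotic from 0 to 1 (Wald test, at least 10 cells) and Neural from 1 to 3 (sums per batch and day). 5C in SSC1-4 went from 2 to 0 by the strict rule, and the difference between the classes from 1 to 0 by the strict rule and the replicate block. Reversed were Smad6 in RPG1 (-0.24) and Id2 in Neural (-0.69) under the replicate block, and Id3 in Neural with sums per batch and day (1.52), which the block called lower (-0.71). Over all genes the strict rule called 17% in RPG2 and 25.6% in RPG3 against SSC1-4, in place of 36% and 56.8%. The cause was not tested.

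With 1 library left out at a time (45 fits), the counts ranged from 0 to 1 in RPG1, 3 to 3 in RPG2, 5 to 6 in RPG3, 0 to 3 in RPG4, 2 to 4 in RPG2 against RPG1, 0 to 1 in RPG3 against RPG2, 0 to 2 in RPG4 against RPG3, 0 to 1 in Fibroblast, 0 to 1 in Early-pluripotent, 0 to 0 in Meiotic, 0 to 1 in Neural, 1 to 1 in 5C RPG3, 0 to 0 in 5C RPG1, 0 to 2 in 5C SSC1-4 and 0 to 2 in the difference between the classes. The block paired the classes of 1 library, with 2 to 10 libraries holding both, and was not run for RPG4 against SSC1-4 and RPG2 against RPG1, which share none, or RPG3 against RPG2, which share 1. For 5C and DMSO it used shared replicate numbers, whose deviations correlated at -0.018 to 0.045, so these numbers do not pair the samples, and no sample number was shared by all arms of the difference between the classes, where the block gave 0.87 for Id3 (adjusted p = 0.123). The batch covariate was not run for 5C and DMSO. Genes with a few UMIs, Bmp8b above all, are limited by depth.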
